A study of Mus musculus with 12 samples.

Results

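Interferon-stimulated genes are the genes that cells switch on when interferon binds its receptors. They were followed here as a list of 46 genes in cultured mouse aortic smooth muscle cells. The members were found by symbol in a table of 25745 genes, and all 46 were present. The filter on low values, a mean of at least 1 FPKM (fragments corrected for the length of the gene and the depth of the library) over the 12 libraries, left 10758 genes and 45 members. Herc6, an E3 ligase family gene, was the member below it, with 0.671 FPKM on average and between 0.364 and 1.17 FPKM over the libraries.

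All cells were wild type (WT) and came from aortas of C57BL/6J mice aged 5 to 6 weeks, used between passages 5 and 8 after the adventitia and endothelium had been removed. There were 4 groups of 3 libraries: calcification medium with an αKlotho lentivirus, the same medium with an empty lentivirus (vector), calcification medium with no virus named in the title, and basal medium (control). Calcification medium held 3.0 mM sodium phosphate, given for 7 days. Whether the last 2 groups received a virus is not stated in the labels. They also leave out whether replicates are separate animals or cultures, so the p-values below rest on a spread that may be technical. The promoter that drives the transgene is not given in the sources used here.

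Type I interferons bind a receptor whose kinases, Jak1 and Tyk2, activate a transcription factor complex that holds Stat2 and Irf9. That complex binds the interferon-stimulated response element, ISRE, in the promoters of its targets. The products detect viral RNA and DNA, degrade or modify RNA and proteins, and block steps of viral growth, and several of them, such as Irf7, raise interferon production further. Type II interferon acts through another receptor and the gamma-activated site, GAS. Smooth muscle cells of the vessel wall carry both receptors.

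Promoter sequence was examined first, since it shows what the members have in common beyond their names. RefSeq promoter windows of equal length (GRCm38.p6), lying mostly upstream of the start, were given for 36 of the 46 members. The ISRE core was searched as GAAA, any 2 bases and GAAA, and the GAS as TTC, any 3 bases and GAA, on both strands. Overlapping matches were counted. An ISRE core stood in 18 of 36 members, or 50%, against 3.99% of all 27025 genes with a window. A GAS stood in 10 members, or 27.8%, against 9.55% of all genes. A match is a run of letters and does not show that a factor bound there.

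The 6 windows shown belong to members named by their values below and hold an ISRE core in capitals, where reverse-strand matches read TTTC, any 2 bases and TTTC. Each reads 5′ to 3′ along the gene's own strand. In Isg15, 3 overlapping matches form 1 run.
Oas3, chr5:120777610-120777909, minus strand: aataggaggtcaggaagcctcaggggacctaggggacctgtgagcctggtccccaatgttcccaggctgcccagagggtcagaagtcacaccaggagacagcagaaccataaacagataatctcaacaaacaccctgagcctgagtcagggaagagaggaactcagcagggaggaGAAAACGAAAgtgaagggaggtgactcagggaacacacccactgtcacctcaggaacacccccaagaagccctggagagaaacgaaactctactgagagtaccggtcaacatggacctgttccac
Gbp3, chr3:142559794-142560093, plus strand: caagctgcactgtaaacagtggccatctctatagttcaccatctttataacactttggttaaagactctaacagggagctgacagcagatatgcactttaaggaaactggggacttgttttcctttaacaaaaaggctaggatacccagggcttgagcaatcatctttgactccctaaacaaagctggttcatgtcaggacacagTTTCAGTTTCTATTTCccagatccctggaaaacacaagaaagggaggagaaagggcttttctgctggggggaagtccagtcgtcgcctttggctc
Gbp2, chr3:142620413-142620712, plus strand: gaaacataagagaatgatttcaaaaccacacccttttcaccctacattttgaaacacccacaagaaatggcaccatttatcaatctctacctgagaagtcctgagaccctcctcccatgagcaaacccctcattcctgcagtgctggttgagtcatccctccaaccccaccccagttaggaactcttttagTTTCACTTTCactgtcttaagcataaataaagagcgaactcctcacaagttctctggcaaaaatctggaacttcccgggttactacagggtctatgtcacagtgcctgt
Oas1a, chr5:120907476-120907775, minus strand: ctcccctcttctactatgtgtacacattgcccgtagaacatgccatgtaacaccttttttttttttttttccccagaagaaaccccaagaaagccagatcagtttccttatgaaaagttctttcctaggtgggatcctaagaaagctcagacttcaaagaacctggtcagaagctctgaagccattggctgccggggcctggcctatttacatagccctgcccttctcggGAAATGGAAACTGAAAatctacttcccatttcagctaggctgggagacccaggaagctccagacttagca
Ifit3, chr19:34583279-34583578, plus strand: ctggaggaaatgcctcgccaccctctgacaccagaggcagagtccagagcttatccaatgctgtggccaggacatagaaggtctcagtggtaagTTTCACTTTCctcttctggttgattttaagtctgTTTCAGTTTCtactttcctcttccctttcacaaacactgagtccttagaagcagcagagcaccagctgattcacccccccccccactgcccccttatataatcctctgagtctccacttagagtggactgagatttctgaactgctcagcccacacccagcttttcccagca
Isg15, chr4:156200769-156201068, minus strand: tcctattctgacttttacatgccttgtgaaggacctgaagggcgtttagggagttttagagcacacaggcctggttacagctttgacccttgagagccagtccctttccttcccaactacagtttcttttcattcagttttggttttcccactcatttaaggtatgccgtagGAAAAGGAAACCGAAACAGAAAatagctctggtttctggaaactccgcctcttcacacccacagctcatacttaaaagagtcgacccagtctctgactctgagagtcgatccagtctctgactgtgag

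**Figure D1:**
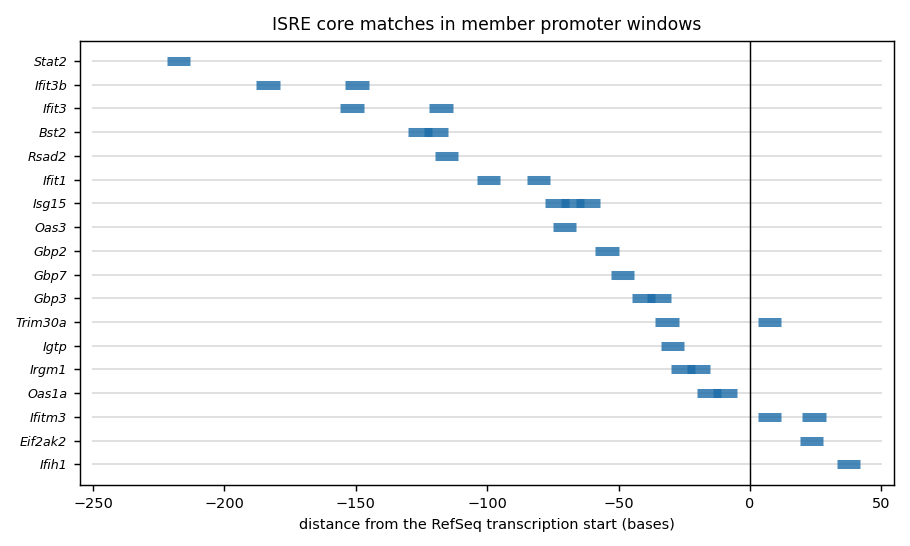
ISRE core matches (blue bars, 10 bases each) in the promoter windows of the 18 members that hold 1, by distance in bases from the RefSeq start at 0. Matches lie on both sides of the start, from Stat2 at the far left to Ifih1 at the right.

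Fold changes of members with an ISRE core overlapped those of members without it. For calcification medium over control the median log2 fold change was 0.79 in the 18 members with a core and 0.52 in the 17 tested members whose window held none, and both sets ranged from near 0 to above 1.4. For the libraries labelled Klotho over vector the medians were 0.10 and -0.01. These are descriptions with no test.

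Libraries held between 16644000 and 20015000 fragments. Kl, which encodes αKlotho, was listed at 0 in 11 of 12 libraries, and the remaining value was 0.00536 FPKM in replicate 3 of the libraries labelled Klotho, so that group is known here by its label. The smooth muscle gene Acta2 averaged 587.6 FPKM and Myh11 18.7 FPKM. Among markers of other cells, Ptprc, the pan-leukocyte gene, averaged 0.0126 FPKM, and the 6 lymphoid genes in the table summed to at most 0.353 FPKM in any library. In bulk RNA, fewer cells of a type and less RNA per cell cannot be told apart.

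The members spanned a wide range of levels. Ifitm3, which restricts virus entry at membranes, averaged 1378 FPKM over the 12 libraries, and Bst2, which tethers budding virus, averaged 384.0 FPKM. Ifi27, a small hydrophobic membrane protein, averaged 191 FPKM, Lgals3bp, a secreted glycoprotein, 165 FPKM, and Isg15, a ubiquitin-like modifier, 143 FPKM. Ifit3, Ifi35 and Ifit1 followed at 78.4, 33.3 and 32.7 FPKM. At the low end Gbp7, Mx2, Oasl1 and Rsad2 averaged between 1.08 and 1.16 FPKM. Several members sit beside each other, as the table gives their positions: Ifit2, Ifit3, Ifit3b and Ifit1 on chromosome 19 (34528094 to 34627409), Oas2, Oas3 and Oas1a on chromosome 5 (120868398 to 121045584), Gbp7, Gbp3 and Gbp2 on chromosome 3 (142236103 to 142343769). Values of Ifit3 and Ifit3b, which are near-identical copies, are uncertain, since how shared reads were counted is not given. How far the other neighbours share reads was not examined. Dtx3l and Parp9 lie on opposite strands of chromosome 16 and overlap by 682 bases, so their reads cannot be fully told apart without a strand setting.

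**Figure D2:**
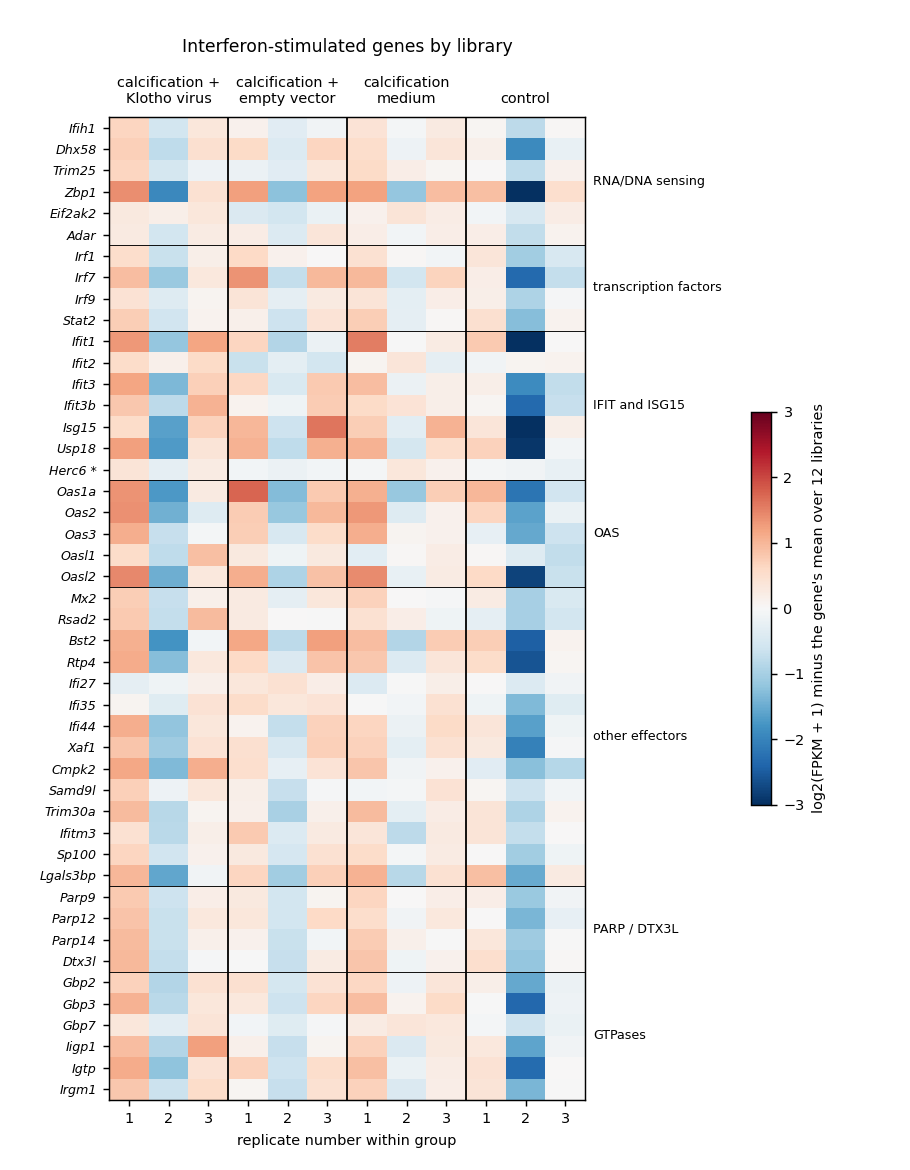
Log2(FPKM + 1) of the 46 members minus each gene's mean over the 12 libraries, with rows by role and columns by group and replicate number. The colours saturate at the ends of the bar, and the asterisk marks Herc6, which was not tested. Replicate 2 is blue in most rows of every group, most deeply in control.

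The replicate number took more of the members' variance than the group did. Replicate 2 held the lowest value of its group in all 4 groups for 33 of 45 members (73.3%), as it did for 6.65% of all genes tested. Of the variance of log2(FPKM + 1), the replicate number took a median of 67.4% in members and 19.8% in all genes tested, and the group took 21.2% and 40.7%. The median deviation of the members from their means (log2) was 0.81, -0.76 and 0.34 in replicates 1, 2 and 3 labelled Klotho, 0.35, -0.55 and 0.42 in vector, 0.69, -0.14 and 0.24 in calcification medium, and 0.20, -1.37 and -0.10 in control. Control replicate 2 stood lowest, with 1 of 45 members above its own mean.

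Isg15 shows the pattern. It stood at 156, 33.8 and 171 FPKM in the libraries labelled Klotho, 212, 69.1 and 326 FPKM in vector, 178, 85.0 and 218 FPKM in calcification medium and 137, 7.80 and 119 FPKM in control. Replicate 2 was lowest in every group, and all 4 groups overlapped. Within control the highest value was 17.6 times the lowest for Isg15, 33.1 times for Ifit1, which binds viral RNA ends, and 75.3 times for Oasl2, an oligoadenylate synthetase relative.

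A few members varied little between replicates. In control, Ifit2, a relative of Ifit1, differed 1.18-fold between its lowest and highest library and Ifi27 differed 1.33-fold. The replicate number took 1.9% of the variance of Ifit2 and 9.0% of that of Ifi27. Mx2, a dynamin-like antiviral GTPase, Rsad2, which makes a chain-terminating nucleotide, Ifi44 and Iigp1 were listed at 0 in control replicate 2, where 3 fragments would be 0.0479, 0.0399, 0.0282 and 0.0297 FPKM, a limit that covers counting error only.

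**Figure D3:**
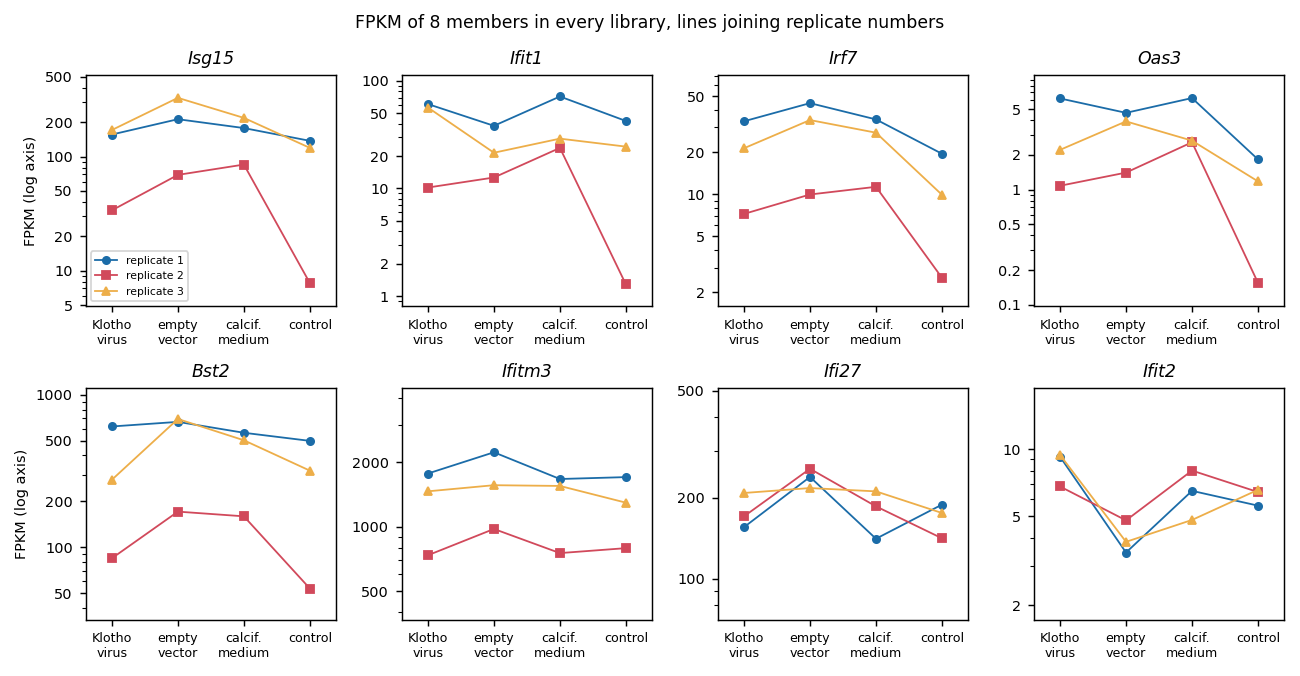
FPKM (log axis) of 8 members in each library, by group from Klotho virus to control, with lines joining libraries of the same replicate number. Isg15, Ifit1, Irf7, Oas3, Bst2 and Ifitm3 are lowest in replicate 2 of every group, while the lines of Ifi27 and Ifit2 cross.

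Markers of other cell types also differed with the replicate number. The 12 macrophage and myeloid genes summed to between 84.6 and 127 FPKM in replicate 1 of the 4 groups, against 28.9 to 56.4 FPKM in the other libraries, mostly from Lyz2, and 4 of the 12, including Ptprc, Itgam and Aif1, stayed under 1 FPKM everywhere. The 8 smooth muscle genes summed to between 192 and 348 FPKM in replicate 1 and between 837 and 1477 FPKM in the others. The smooth muscle sum was also lower in replicate 2 than in replicate 3 of every group. The 8 adventitial fibroblast genes, led by Ly6a, which interferon also induces, summed to between 521 and 1030 FPKM in replicate 2, which was the lowest of its group each time, and between 690 and 1687 FPKM in the others. The 7 endothelial genes summed to at most 9.96 FPKM. Of the plasmacytoid dendritic cell list, 5 of 6 genes were in the table and 2 were tested, the member Bst2 among them. Irf8 averaged 0.0495 FPKM and Ccr9 0.00129 FPKM, and these were the 2 under 1 FPKM everywhere. In control replicate 2 the list summed to 56.8 FPKM, of which Bst2 gave 53.7 FPKM. The part of these markers in the members' levels was not tested.

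Calcification medium without a named virus was set against control to see how the phosphate treatment bore on the members. All 45 had a positive log2 fold change over control, with a median of 0.73 and a range of 0.03 to 1.51, beside a median of 0.04 over all genes tested, of which 57.1% were positive. Under median-ratio scaling 44 were positive, and Ifit2 was not. Limma called none of the 45 at an adjusted p under 0.05 (smallest adjusted p = 0.267), beside 0.706% of all genes. An unadjusted p under 0.05 was found for 5 of 45 members, beside 1239 of the 10758 genes tested. Limma-voom on recovered fragments also called 0.

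With the replicate number as a block, limma called 9 members higher and 0 lower. That is 20% of the members, beside 3.91% of all genes called in either direction and 2.74% called higher. Same-numbered libraries deviated together in this comparison. When the virus groups were given their own replicate terms, 2 of the 9 were called, Irf7 and Oas3, beside 1.86% of all genes. In same-numbered pairs, 36 of 45 members (80%) were higher in calcification medium in all 3, beside 21.0% of all genes. Groups did not overlap for 7 members (15.6%), beside 9.19%: Rsad2, Gbp7, Ifi35, Oas3, Cmpk2, Ifit3b and Gbp3.

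The pairs differed in size. The median log2 difference of the members was 0.37 in replicate 1, 1.15 in replicate 2 and 0.43 in replicate 3. The medians of all genes lay between 0.00 and 0.07. Without control replicate 2 the median log2 fold change was 0.17 without the block, with 36 of 45 members positive. That fit kept calcification replicate 2, so it mixes the replicate number with the medium. With the block the median was 0.53, with 44 positive and 2 members called, beside 1.58% of all genes. With replicates 1 and 3 alone the median was 0.42 and the block called 0, beside 0.177% of all genes. The summed FPKM of the adventitial list, which Ly6a leads, was 1311, 636 and 950 in calcification medium, against 799, 521 and 690 in control. Its 6 tested genes had a median log2 fold change of -0.52, and 1 of them, Ly6a, was positive. Its part in the members' fold changes was not tested.

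**Figure D4:**
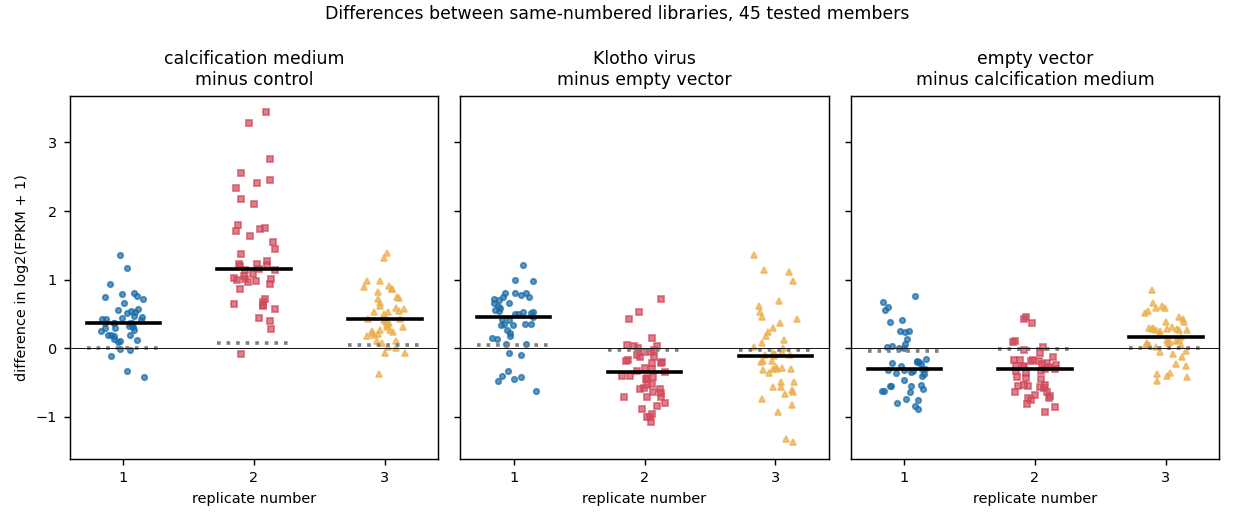
Differences in log2(FPKM + 1) between same-numbered libraries for the 45 tested members, by replicate number, in 3 comparisons. Black bars are the members' medians and dotted grey bars the medians of all genes tested. Members lie mostly above 0 in calcification medium minus control, farthest in replicate 2, and on both sides of 0 in the other comparisons.

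Among the transcription factors, Irf7, the regulator that amplifies interferon production, had the smallest p. It stood at 34.2, 11.3 and 27.5 FPKM in calcification medium, against 19.5, 2.54 and 9.92 FPKM in control. The calcification library was higher in each of the 3 pairs, although the groups overlapped. Its log2 fold change was 1.32 ± 0.16 (SE), with an adjusted p of 0.00169 in limma with the block and 0.544 without it. With the virus groups apart the adjusted p was 0.0122 in limma with the block. Stat2, Irf9 and Irf1, the other factors in the list, had log2 fold changes of 0.35 to 0.52, and none was called in either fit.

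The OAS genes make the messenger that activates RNase L, or are relatives of those that do, and 3 of 5 rose with the block. Oas3 stood at 6.23, 2.58 and 2.66 FPKM in calcification medium, against 1.83, 0.155 and 1.18 FPKM in control, with no overlap. Its log2 fold change was 1.24 ± 0.21 (SE) and its adjusted p 0.00865 in limma with the block. Oasl2 (log2 fold change 1.42) and Oas1a (0.82) were also called, with limma adjusted p of 0.0304 and 0.0485, and Oas2 and Oasl1 were not. Without the block the adjusted p in limma was 0.347 for Oas3, 0.603 for Oasl2 and 0.809 for Oas1a. With the virus groups apart only Oas3 of these was called. Without control replicate 2 and without the block, the log2 fold change was 0.51 for Oasl2 and 0.02 for Oas1a. That fit kept calcification replicate 2, the lowest of its group for both, so it mixes the replicate number with the medium. Both genes were higher in calcification medium in all 3 same-numbered pairs.

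The guanylate-binding proteins attack the membranes of intracellular microbes. Gbp3 stood at 17.2, 9.18 and 13.2 FPKM in calcification medium, against 8.52, 0.866 and 7.55 FPKM in control, and the groups did not overlap. It rose with the block by a log2 fold change of 1.37 ± 0.29 (SE; limma adjusted p = 0.0264). Gbp2, at 34.8, 19.7 and 29.0 FPKM in calcification medium, against 25.2, 7.00 and 19.5 FPKM in control, rose by 0.79 ± 0.17 (SE; limma adjusted p = 0.0301). Without the block the adjusted p in limma was 0.424 for Gbp3 and 0.594 for Gbp2. Neither was called with the virus groups apart. The other GTPases, Gbp7, Igtp, Irgm1 and Iigp1, had log2 fold changes between 0.48 and 0.93 and were not called.

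Among the other roles, 3 members were called with the block. Parp12, a mono-ADP-ribosyltransferase, had a log2 fold change of 0.79 (limma adjusted p = 0.0363). Dhx58, which encodes the RNA sensor LGP2, had 0.90 (limma adjusted p = 0.0462), and Sp100, a nuclear body protein, had 0.63 (limma adjusted p = 0.0485). Parp9 lay just outside, at 0.63 with an adjusted p of 0.0596 in limma with the block. Without the block the adjusted p in limma was 0.546 for Parp12, 0.566 for Dhx58 and 0.558 for Sp100. None of these 3 was called with the virus groups apart.

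The largest fold changes were not called. Isg15 had a log2 fold change of 1.51 and Ifit1 of 1.47. None of the 6 tested genes grouped with them by role, Usp18 among them, passed in either fit. Ifit1 stood at 71.6, 23.8 and 29.0 FPKM in calcification medium, against 42.4, 1.28 and 24.5 FPKM in control. On the log2 scale most of its difference lay in replicate 2. Without control replicate 2 and without the block, the log2 fold change was 0.22 for Isg15 and 0.19 for Ifit1. That fit kept calcification replicate 2, the lowest of its group for both, so it mixes the replicate number with the medium. Of the 3 most abundant members, Ifitm3 had a log2 fold change of 0.05, Bst2 of 0.80 and Ifi27 of 0.08. Those of Ifitm3 and Ifi27 turned negative with a correction for GC content and length.

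**Figure D5:**
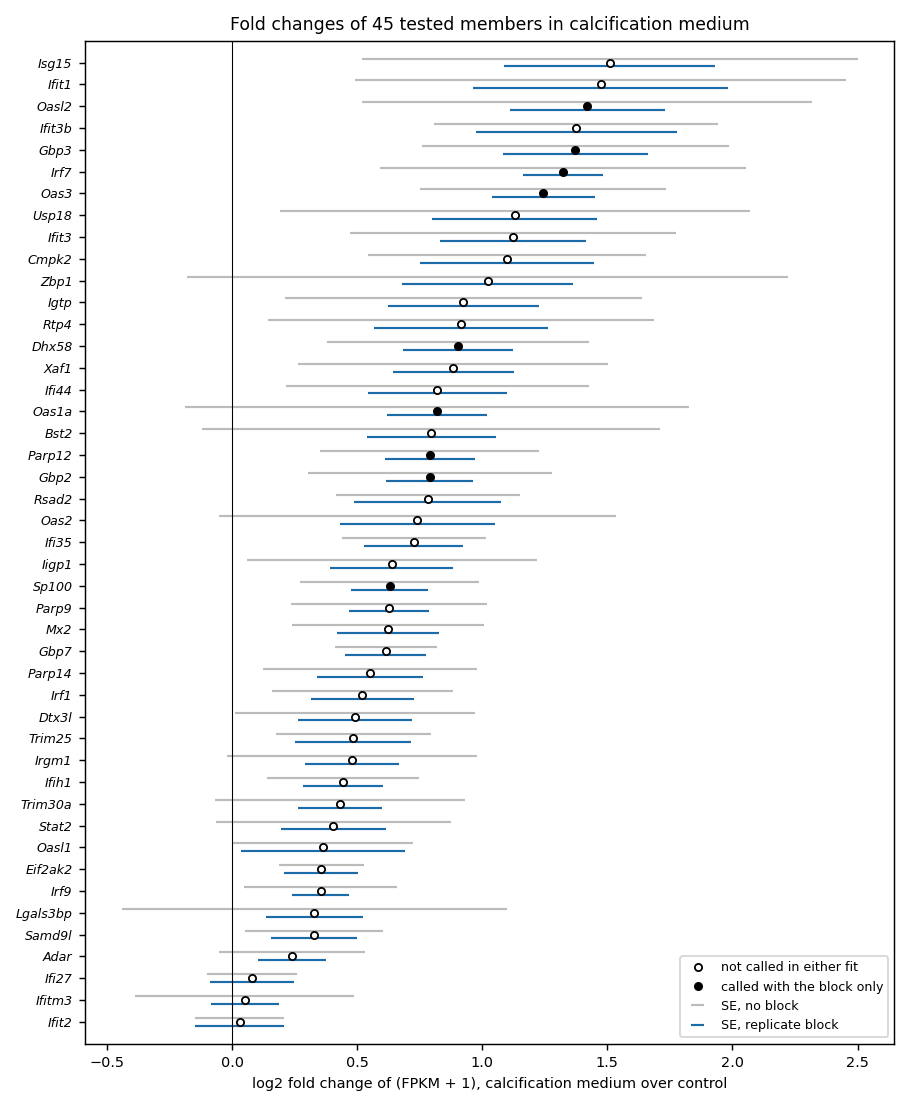
Log2 fold change of (FPKM + 1) for the 45 tested members, calcification medium over control, sorted by size, with bars of 1 SE without the block (grey) and with it (blue). Filled points mark the 9 members called with the block, and all points lie to the right of 0.

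The second comparison asked how the libraries labelled Klotho differed from vector. Limma called 0 of 45 members, beside 0.0% of all genes, and limma-voom called 0. In limma 3 members had an unadjusted p under 0.05, beside 1514 of the 10758 genes tested. The median log2 fold change was -0.03, with 21 members positive, and -0.01 over all genes. Pair medians were 0.45, -0.35 and -0.11, so the direction turned with the replicate number. The median SE of a member's log2 fold change was 0.49.

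The members with the smallest p were Ifit2, Eif2ak2 and Ifi27. Ifit2 stood at 9.25, 6.80 and 9.42 FPKM in the libraries labelled Klotho, against 3.44, 4.79 and 3.84 FPKM in vector. Its groups did not overlap, and its log2 fold change was 0.91 ± 0.18 (SE; limma adjusted p = 0.170). Eif2ak2, the kinase PKR that halts translation on double-stranded RNA, stood at 10.9, 9.96 and 11.3 FPKM in the libraries labelled Klotho, against 6.24, 5.67 and 7.55 FPKM in vector. Its log2 fold change was 0.65 ± 0.17 (SE; limma adjusted p = 0.222). Ifi27 stood at 156, 171 and 209 FPKM in the libraries labelled Klotho, against 239, 257 and 218 FPKM in vector, with a log2 fold change of -0.42 ± 0.18 (SE; limma adjusted p = 0.323). Non-overlap was common in this comparison, at 11.3% of all genes higher and 10.4% lower, beside 4.44% and 2.22% of members.

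The third comparison set the empty vector against calcification medium alone. Limma called 0 of 45 members, beside 0.0% of all genes, and limma-voom called 0. In limma 4 members had an unadjusted p under 0.05, beside 1520 of the 10758 genes tested. The median log2 fold change was -0.12, with 15 members positive. Eif2ak2 and Ifit2 had log2 fold changes of -0.63 ± 0.17 and -0.55 ± 0.18 (SE), and Ifi27 had 0.42 ± 0.18 (SE), none with an adjusted p under 0.288 in limma. Groups did not overlap, with vector lower, for 3 members (6.67%, beside 11.3% of all genes), the third being Gbp7, and with vector higher for 1 (2.22%, beside 6.11%). The vector values of these 3 genes lay outside the calcification values: Eif2ak2 stood at 9.62, 11.7 and 10.4 FPKM, Ifit2 at 6.50, 8.02 and 4.82 FPKM and Ifi27 at 141, 186 and 212 FPKM in calcification medium. This comparison shares the vector libraries with the second, so opposite signs in both are not independent.

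The libraries labelled Klotho against calcification medium gave 0 of 45 members called in limma, beside 0.0% of all genes. At an unadjusted p under 0.05 there were 0 members, beside 337 of the 10758 genes tested. Limma-voom called 0. The median log2 fold change was -0.16, but it was 0.29, with 44 of 45 members positive, without Klotho replicate 2, 0.06 without calcification replicate 1 and -0.49 without Klotho replicate 1. In replicate 2 all 45 members were lower in the library labelled Klotho, and in replicate 1 they were higher for 39.

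Both virus groups were also set against control, from which they differ in medium as well as virus. In vector against control, limma called 1 member, Ifi35, an interferon-induced leucine zipper protein, which is 2.22% of members beside 15.4% of all genes called and 7.44% called higher. Ifi35 stood at 46.8, 40.3 and 42.3 FPKM in vector, against 28.7, 12 and 24.3 FPKM in control, with no overlap and a log2 fold change of 1.05 ± 0.29 (SE; limma adjusted p = 0.0360). With the block 22 members were called higher and 1, Ifit2, lower, or 51.1% beside 29.8% of all genes (15.8% higher and 14.0% lower). In the libraries labelled Klotho against control, limma called 0 members beside 0.772% of all genes, and limma-voom called 0. In limma 5 members had an unadjusted p under 0.05, beside 1604 of the 10758 genes tested. With the block limma called 3 higher, Irf7, Oas3 and Parp12, or 6.67% beside 4.81% called in either direction and 3.16% called higher. These comparisons share the control libraries with that of calcification medium.

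Upstream genes of the pathway were examined in calcification medium over control, where 0.706% of all genes were called without the block and 3.91% with it. Of 21 interferon genes in the list, 4 were in the table and none reached the filter, and Ifnb1, interferon beta, averaged 0.00606 FPKM. Of 10 tested receptor and signalling genes none was called in either fit: log2 fold changes over control were -0.23 for Ifnar1, 0.02 for Ifnar2, -0.25 for Ifngr1, 0.11 for Ifngr2, 0.18 for Tyk2, -0.17 for Jak1, 0.25 for Jak2, 0.08 for Il10rb and -0.37 for Stat3. Of 6 tested genes in the list of other IRF family genes and their binding proteins, none was called: Irf3, the factor activated by nucleic acid sensors, had 0.24, Irf2 -0.26 and Irf5 0.28. Among 13 tested sensors and adaptors 1 passed, and only with the block: Sting1, the adaptor of DNA sensing, at 12.9, 5.44 and 7.85 FPKM in calcification medium, against 19.8, 8.55 and 12.8 FPKM in control, fell by 0.60 on the log2 scale (limma adjusted p = 0.0163). Of 12 tested negative regulators and nucleases none was called in either fit. In vector against control, 15.4% of all genes were called without the block, and 0 of 10 receptor and signalling genes. The list of IRF family genes and their binding proteins gave 3 of 6, with 2 higher and 1 lower. Calls were 1 of 13 sensors and adaptors, lower, and 5 of 12 negative regulators and nucleases, with 1 higher and 4 lower. The genes called in that comparison are not named here.

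A list of 62 further interferon-stimulated genes outside the members had 60 in the table and 38 tested. Their median log2 fold change in calcification medium over control was 0.49, and 35 were positive. Limma called 1 without the block, beside 0.706% of all genes: Ifi30, a lysosomal thiol reductase, at 40.4, 56.7 and 55.8 FPKM in calcification medium, against 31.5, 24.4 and 25.2 FPKM in control. Its groups did not overlap, and its log2 fold change was 0.88 ± 0.16 (SE; limma adjusted p = 0.0303). With the block 8 of 38 were called, all higher, beside 3.91% of all genes called and 2.74% called higher. The 5 with the smallest p were Ube2l6, which conjugates Isg15 to proteins (log2 fold change 0.70), Ifi30, Plac8 (1.33), Mov10, an RNA helicase (0.65), and Ly6e, a membrane protein (0.60), followed by Uba7, the activating enzyme for Isg15, Apol9b and the chemokine Ccl5.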

How the data were processed

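RNA of 12 libraries was measured. The authors deposited 1 table of FPKM values, which scale fragment numbers by gene length and library size. Its header names no unit; the unit was read from the deposited values, since about 98% of low values are whole fragments within 0.05 once multiplied by GENCODE M21 exon length. The submitters' processing notes name CASAVA 1.8.2, STAR 2.4 and DESeq2 3.12 without roles, and both GRCm38 and GRCm39. Counting tool and strand setting: not given in the sources used here. Table positions are printed as deposited and cannot be compared with those of the GRCm38.p6 promoter windows. Ifit3 lies at 34560931 to 34566131 as deposited, and its window at 34583279 to 34583578.

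Limma 3.58.1 (R 4.3.3) with a mean-variance trend was run on log2(FPKM + 1), a scale that understates changes of low genes, in 1 fit over 12 libraries. Genes needed a mean of at least 1 FPKM, and Benjamini-Hochberg adjustment ran over the 10758 genes tested. Called means an adjusted p under 0.05. The fit was checked on simulated data, in which replicate effects were drawn gene by gene and shared by all 4 groups. The members' replicate deviations moved together and differed in size between groups, a setting that was not simulated.

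The members, lists and tests were chosen with earlier results of these data known. Named members are the 8 with the highest mean FPKM, the 10 with the smallest blocked p for calcification medium over control, and the 3 with the smallest p in each virus comparison; other members are named as examples or chosen after their values were seen. Pathway genes are named if called for calcification medium over control, or if they are receptors, kinases or IRFs of the cascade. Of those called, the 5 with the smallest p per list are named, with Uba7, Apol9b and Ccl5 added after their values were seen. A gene within that rule is not reported here.

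The labels number the replicates without saying what a number marks. Deviations from group means were shared by same-numbered libraries, with correlations across genes of 0.199 to 0.509 for calcification medium and control, 0.573 to 0.731 for the Klotho label and calcification medium, 0.403 to 0.537 for vector and control and 0.242 to 0.571 for the Klotho label and control. There the blocked value is given where it changes a call. Alternatives covered the pseudocount, filter, scaling, limma-voom, block, fewer libraries, each library left out, and GC content with length. Some of them were chosen after seeing the data.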

Additional observations from a re-analysis of the deposited data

How the results depend on the processing

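The median member log2 fold change for calcification medium over control stayed positive under every alternative run (0.17 to 0.97), and without 1 library ranged from 0.17 to 0.96. Without 1 library and without the block, the median log2 fold changes for the Klotho label over vector ranged from -0.34 to 0.47. They ranged from -0.36 to 0.18 for vector over calcification medium and from -0.49 to 0.29 for the Klotho label over calcification medium. Their signs turned with single libraries in these fits, where a removed library also leaves the replicate numbers unequal between groups. For calcification medium over control, 0 members were called without the block under each alternative run, beside at most 0.764% of all genes. With the replicate block the count was 9 (beside 3.91% of all genes called), and 9 with limma-voom (4.54%) and 12 with a GC and length correction (4.98%). It was 7 with median-ratio scaling (3.63%) and 7 with a pseudocount of 0.1 (3.84%). With the libraries of the 2 groups only it was 2 (0.772%), and 2 with the virus groups apart (1.86%). It was 17 with replicates 2 and 3 only (6.61%) and 0 with replicates 1 and 3 only (0.177%). Leaving out 1 library, the blocked count ranged from 1 to 10. It was 1 without calcification replicate 2 (beside 0.957% of all genes called), 2 without control replicate 2 (1.58%) and 3 without control replicate 3 (1.53%). It was 4 without calcification replicate 3 (1.58%) or vector replicate 2 (3.16%), and 5 without Klotho replicate 3 (3.1%). The cause was not tested.

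For vector against control, 1 member was called, beside 15.4% of all genes. The count was 0 with no filter, with a GC and length correction, with replicates 2 and 3 only or with replicates 1 and 3 only. It was 2 with the libraries of the 2 groups only. Without 1 library the count ranged from 0 to 2. With the replicate block it was 23, beside 29.8% of all genes. Also with the block, it was 21 with limma-voom, 22 with the 2 groups only and 22 with median-ratio scaling. It was 22 with a pseudocount of 0.1, 16 with GC and length and 23 with replicates 2 and 3. For the Klotho label against control, 0 members (beside 0.772% of all genes) became 3 with the replicate block (4.81%). The count became 5 with limma-voom and the block, 11 with the 2 groups only and 4 with GC and length. It became 3 with median-ratio scaling, 2 with a pseudocount of 0.1, 2 with replicates 2 and 3 and 1 with replicates 1 and 3. Without 1 library and with no block, that count ranged from 0 to 2. Where no share of all genes is printed, a count in this paragraph cannot be set against all genes. The Klotho label against vector gave 0 with the block, beside 0.102% of all genes, and 1, Ifit2, with limma-voom and the block, beside 0.885%. Its same-numbered libraries correlated by 0.294, 0.522 and 0.006 in replicates 1, 2 and 3. Those of vector and calcification medium correlated by 0.314, 0.497 and -0.063, so in both comparisons replicate 3 did not deviate together. With the virus groups apart, the block called 0 members for the Klotho label against vector, beside 0.0093% of all genes. That setting gave no value for comparisons of a virus group with a group without a named virus.

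Log2 fold changes of named members follow for calcification medium over control. Ifitm3 became -0.06 with GC and length, and without 1 library ranged from -0.25 to 0.42. Ifi27 became -0.03 with GC and length and -0.08 with replicates 1 and 3 only, and without 1 library ranged from -0.05 to 0.24. Without 1 library and without the block, Bst2 ranged from -0.16 to 1.44, Lgals3bp from -0.37 to 0.85 and Isg15 from 0.22 to 2.20. Ifit1 ranged from 0.19 to 2.31, Oas1a from 0.02 to 1.61 and Oasl2 from 0.51 to 2.20. All 6 were lowest without control replicate 2, in a fit that kept calcification replicate 2. Depth limits the members near 1 FPKM, and 3 libraries a group limit all of them.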
